A study of Drosophila melanogaster with 40 samples.

Results

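Binding of the repressor Capicua (Cic) was compared between dark OptoSOS embryos, which carry an optogenetic switch of ERK signalling that was never lit, and wild type embryos without the switch. The members are all 103 peaks of the authors' final Cic peak list, each measured in the combined matrix of dark embryos and in that of wild type embryos. The 2 groups account for 6 of the 40 libraries of the series, 3 ChIP libraries each. Dark OptoSOS embryos were labelled with the genotype (UAS-OptoSOS/gal4);(CicsfGFP/gal4), with OptoSOS driven by the maternal triple driver MTD gal4, and received no blue light. Wild type embryos were labelled (+/+); (CicsfGFP/+). Both genotypes thus list Cic tagged with super-folder GFP on 1 chromosome, and only that of the dark group lists Gal4 drivers and the UAS construct. The labels do not say whether a genotype is that of the mothers or of the embryos, so the dose of tagged Cic in the embryos is not known. All embryos were Drosophila melanogaster of nuclear cycle 14, collected for 3 to 4 h in the dark, dechorionated in red light for 2 min, fixed for 15 min and precipitated with an antibody against GFP. Dark and wild type embryos differ in genotype and in library, and a difference between lines cannot be told apart from one between libraries. Values from other groups of the series are set beside these where stated. They are OptoSOS embryos given 1, 5 or 30 min of light, embryos with tagged Cic and constitutively active Torso, and untagged OreR embryos.

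Cic is an HMG-box repressor that sits at enhancers and promoters of genes controlled by receptor tyrosine kinases. When ERK is active it phosphorylates Cic, which then leaves its targets, so that genes such as tll and hkb are expressed at the embryo's poles, where the receptor Torso is active. OptoSOS places the catalytic part of the Ras activator SOS under blue light control. A line kept dark is the baseline for light pulses, and here it is set against wild type.

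The deposited values are z-scores of read counts in 10 bp windows, set to the mean and spread of noise peaks of the same condition. Within each matrix the z-scores differ by multiples of 1 step, from which coverage was recovered. It is given as coverage over noise, where 1 is the mean of the noise peaks. Mean noise coverage was 4.33 reads in dark embryos and 3.93 reads in wild type embryos, 1.10 times as much in the dark. Library depths of the dark embryos are not given in the sources used here, whereas the wild type peak call used 6994179 tags. The level of a peak is its mean within 250 bp of the window centre, which held 68.6 to 1013 read equivalents of 74 bp in dark embryos (median 221) and 67.9 to 709.8 in wild type embryos (median 168). Each condition is 1 combined matrix with no replicate error, so no test was possible. Ratios carry 95% exact counting intervals, which cover counting error only. The peaks were called on the wild type libraries, and sites bound only in dark embryos could not enter.

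The sites called in wild type embryos were also covered in the dark line, with slightly more signal at most of them. The median z-score was 8.69 in dark embryos (95% interval over peaks 7.51 to 10.8) and 7.29 in wild type embryos (6.52 to 8.91). Peaks kept much of their order, with a Spearman correlation of 0.925 between the levels over 103 peaks that share both sets of libraries, and 8 of the 10 highest peaks were the same. The ratio of coverage over noise, dark over wild type, had a median of 1.19 (1.13 to 1.24) and quartiles of 1.06 and 1.34. The ratio was above 1 at 88 peaks (85.4% of all) and below 1 at 15 (14.6%). Dark coverage was at least 25% higher at 37 peaks (35.9%) and at least 20% lower, the inverse fold, at 6 (5.83%), and the remaining 60 lay between. The counting interval lay above 1 at 48 peaks (46.6%) and below 1 at 3 (2.91%). The ratios scattered more than counting alone gives: their SD on the log2 scale was 0.28, against a root mean square counting error of 0.15. How much of the remainder is scatter between libraries was not tested. The size of the general excess depends on the scaling. Scaled to equal flanks, over 700 bp from the centre, the median ratio was 1.13 (1.07 to 1.17). With that scaling 27 peaks were at least 25% higher and 6 at least 20% lower in dark embryos. Scaling to a median ratio of 1, a shift of -0.26 on the log2 scale, removes any general excess by construction. It left 10 peaks at least 25% higher and 10 at least 20% lower in dark embryos. Counts relative to the median of 1.19 are therefore given beside the counts relative to 1.

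**Figure D1:**
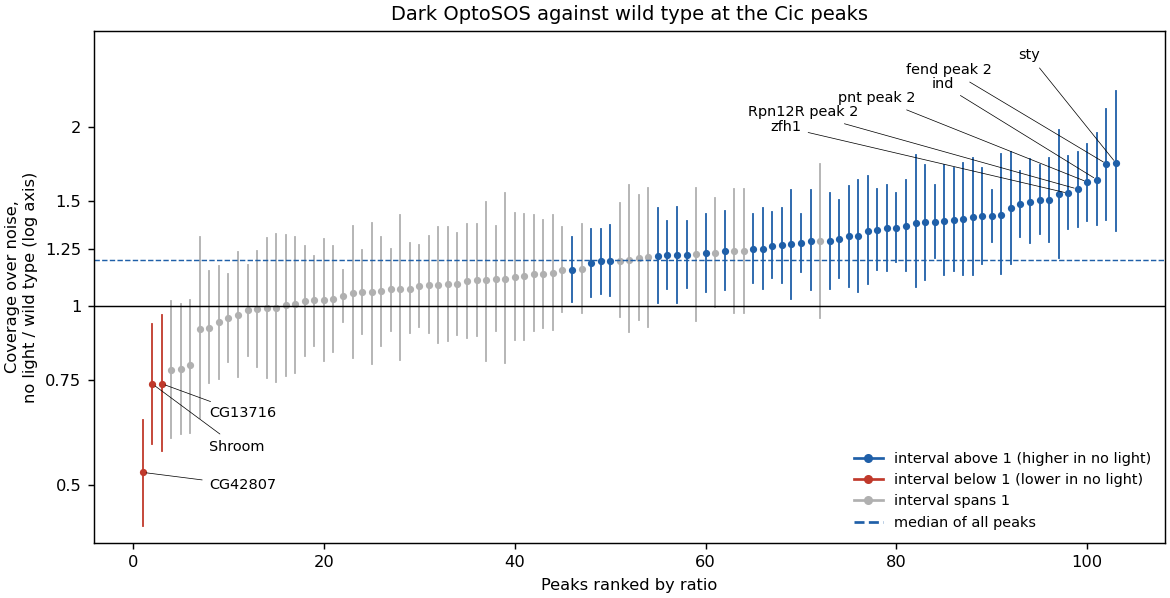
Ratio of coverage over noise, dark OptoSOS embryos (no light) over wild type, for all 103 peaks in order of size on a log axis, with 95% counting intervals. The dashed line is the median of 1.19, and 48 intervals lie above 1 and 3 below.

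The excess in the dark line went with the mean level of the peak over both conditions. That mean contains the dark value, and all peaks were called on wild type coverage. The part of either in this gradient was not tested. At the 26 peaks of highest mean level over both conditions the median ratio was 1.26 and all 26 ratios were above 1, 19 of them above 1.19. At the 26 of lowest mean level the median ratio was 1.09, with 18 above 1 and 8 above 1.19. Between them the medians were 1.14 and 1.21. Subtracting the noise level from both conditions left this order, with medians of 1.12, 1.16, 1.24 and 1.28 from the lowest to the highest group. The Spearman correlation of the ratio was 0.380 with the mean level, 0.205 with the wild type level and 0.514 with the dark level, over peaks that share libraries and noise scaling. It was -0.022 with the untagged level, the local background of untagged embryos in the peak call. The flanks, over 700 bp from the centre, had a median of 1.49 times the noise in dark embryos and 1.41 times in wild type embryos, with a median ratio of 1.07.

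**Figure D2:**
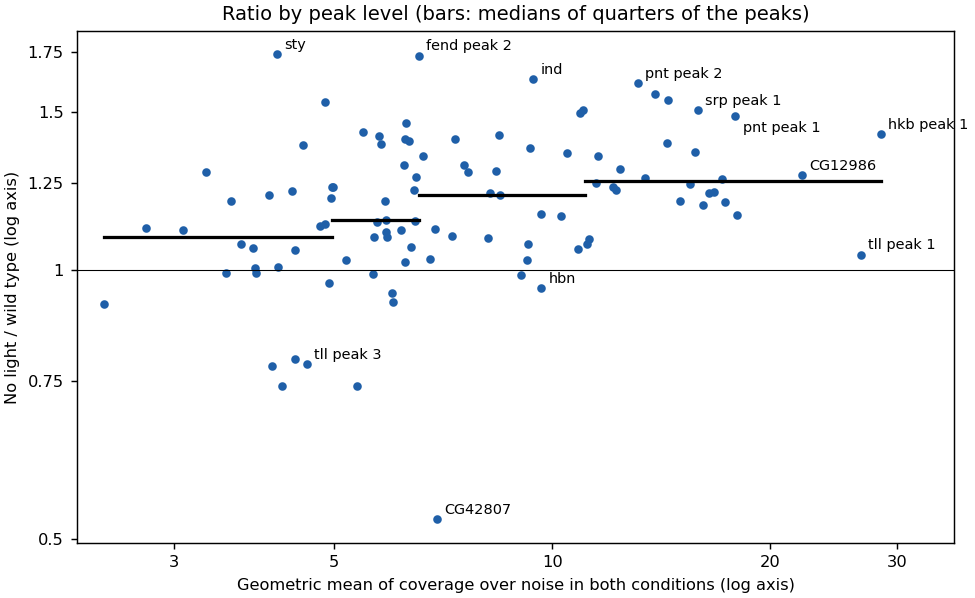
Ratio of dark OptoSOS embryos (no light) over wild type against the geometric mean of coverage over noise in both conditions, both on log axes, 1 point per peak. Bars are medians over 4 groups of peaks by level, which run from 1.09 at the lowest to 1.26 at the highest, and tll peak 1 lies near 1 in spite of its height.

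The highest peak of each condition belonged to a terminal gene, and known Cic targets differed among themselves. The list of known targets had 12 peaks at 6 of its 8 genes, of which 10 had a ratio above 1, 4 were at least 25% higher and 1 at least 20% lower in dark embryos, with a median ratio of 1.17 against 1.19 over all peaks. Over all peaks 85.4% had a ratio above 1, 35.9% were at least 25% higher and 5.83% at least 20% lower. Against that median 4 of the 12 were higher. The gap gene tll encodes a nuclear receptor of the embryo's ends and has 3 peaks. At its promoter (tll peak 1, dm6 chromosome 3R, 30851662 to 30852585) coverage over noise was 27.3 in dark embryos and 26.2 in wild type embryos, a ratio of 1.04 (0.939 to 1.15). It was the second highest peak in dark embryos and the highest in wild type embryos. The intergenic tll peak 2 (3R, 30849340 to 30850503) had 19.4 in dark embryos and 16.8 in wild type embryos, a ratio of 1.15 (1.02 to 1.31), which became 0.964 when scaled to a median ratio of 1. The weak tll peak 3 (3R, 30856142 to 30856626) went the other way, with 4.06 in dark embryos and 5.18 in wild type embryos and a ratio of 0.783 (0.609 to 1.01). Its counting interval spans 1, and within 500 bp of the centre the ratio was 1.03.

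The highest dark peak belonged to hkb, which encodes a zinc-finger factor needed for the gut ends of the embryo. Coverage over noise at hkb peak 1 (3R, 4348112 to 4348940), upstream of the gene, was 33.9 in dark embryos and 23.9 in wild type embryos, a ratio of 1.42 (1.28 to 1.57). Its z-score of 44.7 in dark embryos and 32.1 in wild type embryos made the largest z difference of all peaks. The profile has 2 summits in both conditions. In dark embryos the second lay 310 bp from the centre with 44.7 times the noise, against 370 bp and 33.5 in wild type embryos, and the valley between the summits held 29.2 in dark embryos and 18.1 in wild type embryos. With the profiles aligned by shape the ratio of hkb peak 1 was 1.30 and its dark z-score 40.8. The z difference of pnt peak 1 was then larger than that of hkb peak 1. By the highest 10 bp window the ratio of hkb peak 1 was 1.26 (1.02 to 1.54). The promoter peak of the gene, hkb peak 2 (3R, 4346449 to 4347038), had 17.5 in dark embryos and 14.9 in wild type embryos, a ratio of 1.18 (1.04 to 1.35), or 0.988 scaled to a median ratio of 1.

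The ETS gene pnt, an activator downstream of ERK, had more Cic in the dark line at its promoter and in the neighbouring intron. At pnt peak 1 (3R, 23314231 to 23314688) coverage over noise was 21.8 in dark embryos and 14.7 in wild type embryos, a ratio of 1.49 (1.31 to 1.69). At pnt peak 2 (3R, 23315058 to 23315760) it was 16.7 in dark embryos and 10.3 in wild type embryos, a ratio of 1.62 (1.39 to 1.88). Its central summit reached 27.1 in dark embryos and 15.5 in wild type embryos. The third peak, also intronic, had 5.06 in dark embryos and 4.52 in wild type embryos, a ratio of 1.12 (0.878 to 1.44). The targets wntD, a Wnt family gene, and aos, a secreted inhibitor of EGFR signalling, differed less. wntD had 18.9 in dark embryos and 15.9 in wild type embryos, a ratio of 1.19 (1.05 to 1.35), or 0.995 scaled to a median ratio of 1, while the intervals of both aos peaks spanned 1 (ratios 0.990 and 1.13).

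At the locus of ind, a homeobox gene of the neuroectoderm, 3 neighbouring peaks were higher in dark embryos. The ind peak (3L, 15045121 to 15045495) had coverage over noise of 12.03 in dark embryos and 7.37 in wild type embryos, a ratio of 1.63 (1.37 to 1.95), the third highest of all. Its highest point was 24.6 in dark embryos and 16.6 in wild type embryos. A pair of peaks that the authors annotated to Rpn12R, a proteasome subunit gene, lies in the same stretch, and by the RefSeq annotation of Release 6 the ind peak and Rpn12R peak 2 lie inside the gene body of Sytbeta. Rpn12R peak 2 (3L, 15040299 to 15041028) had 17.4 in dark embryos and 11.1 in wild type embryos, a ratio of 1.57 (1.36 to 1.82). Rpn12R peak 1 had 17.3 in dark embryos and 13.9 in wild type embryos, a ratio of 1.248 (1.09 to 1.43).

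**Figure D3:**
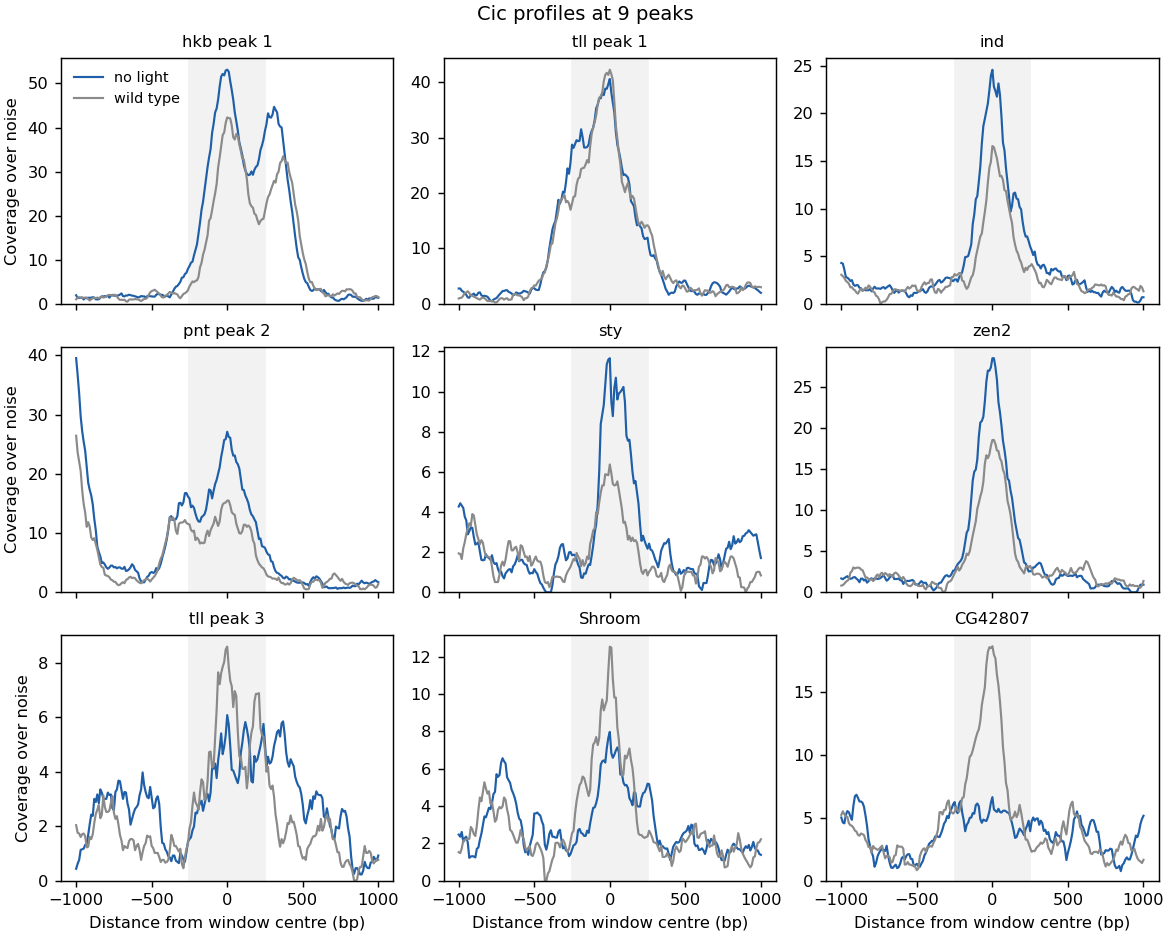
Coverage over noise by distance from the window centre in dark OptoSOS embryos (no light) and wild type embryos at 9 peaks, with the central 500 bp shaded. Dark profiles stand above wild type at hkb peak 1, ind, pnt peak 2, sty and zen2, both coincide at tll peak 1, and at the centre of CG42807 dark embryos reach 6.63 against 18.6 in wild type embryos.

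Dorsoventral genes mostly had more Cic in the dark line. All 12 peaks, at 11 of 28 genes listed, had a ratio above 1, 7 were at least 25% higher in dark embryos and 10 intervals lay above 1, with a median ratio of 1.27. Over all peaks these shares were 85.4%, 35.9% and 46.6%, and scaled to equal flanks brk had 0.968 and scaled to a median ratio of 1 it had 0.853. Above the median of all peaks lay 11 of the 12, all but brk. The list also has a higher level, with median z-scores of 16.4 in dark embryos and 11.1 in wild type embryos, and the ratio goes with the level. The peak annotated to the metalloprotease gene tld, which frees BMP ligands, had coverage over noise of 13.5 in dark embryos and 8.98 in wild type embryos (ratio 1.51, 1.28 to 1.77). By the RefSeq annotation of Release 6 this peak lies 251 bp from tok, also on the list, and 355 bp from tld. The homeobox gene zen2 had 13.4 in dark embryos and 8.92 in wild type embryos (1.498, 1.28 to 1.77), and its neighbour zen, which specifies the amnioserosa, had 19.3 in dark embryos and 15.3 in wild type embryos (1.26, 1.11 to 1.44). The untagged level at zen was 2.70 times the lowest over all peaks, against a median of 1.22, and its part in the ratio was not tested. The BMP ligand gene dpp had ratios of 1.22 (1.07 to 1.39) and 1.41 (1.13 to 1.77) at its peaks 1 and 2. The T-box genes Doc2 and Doc3 had ratios of 1.22 (1.07 to 1.39) and 1.46 (1.18 to 1.81). The FGF ligand gene ths had 1.27 (1.09 to 1.46) and the mesoderm gene sna 1.2499 (1.07 to 1.46). Intervals spanned 1 at the GATA gene pnr (1.23, 0.996 to 1.52), which had 0.964 within 100 bp of the centre, and at brk, a repressor of BMP targets, where 6.33 in dark embryos and 6.21 in wild type embryos gave 1.02 (0.824 to 1.26).

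Receptor tyrosine kinase genes ranged widely. Their list had 13 peaks at 9 of 34 genes, of which 11 had a ratio above 1, 5 were at least 25% higher in dark embryos and 6 intervals lay above 1, with a median ratio of 1.15 and 6 ratios above the median of all peaks. These shares are close to those over all peaks, 85.4%, 35.9% and 46.6%. The feedback inhibitor gene sty (3L, 3420429 to 3420627) had the highest ratio of all peaks, with coverage over noise of 5.49 in dark embryos and 3.15 in wild type embryos (1.74, 1.34 to 2.30). It rests on 164 read equivalents in dark embryos and 85.4 in wild type embryos, and the highest point of its window was 11.7 in dark embryos and 6.37 in wild type embryos. RasGAP1, which turns Ras off, had 7.47 in dark embryos and 5.37 in wild type embryos (1.39, 1.13 to 1.73). The receptor gene Egfr had 13.6 in dark embryos and 11.1 in wild type embryos (1.23, 1.05 to 1.43). The ERK phosphatase gene Mkp3 (1.15, 0.975 to 1.37) and the peaks of cic itself (1.09, 0.875 to 1.36, and 1.03, 0.810 to 1.30) had intervals spanning 1. The Mkp3 interval lay above 1 with profiles aligned by shape (1.22, 1.03 to 1.45) and within 100 bp of the centre (1.496, 1.17 to 1.92), and its ratio was 0.966 scaled to a median ratio of 1. At S, which encodes a protein needed for the export of EGFR ligands, coverage over noise was 3.62 in dark embryos and 4.63 in wild type embryos (0.781, 0.600 to 1.02).

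**Figure D4:**
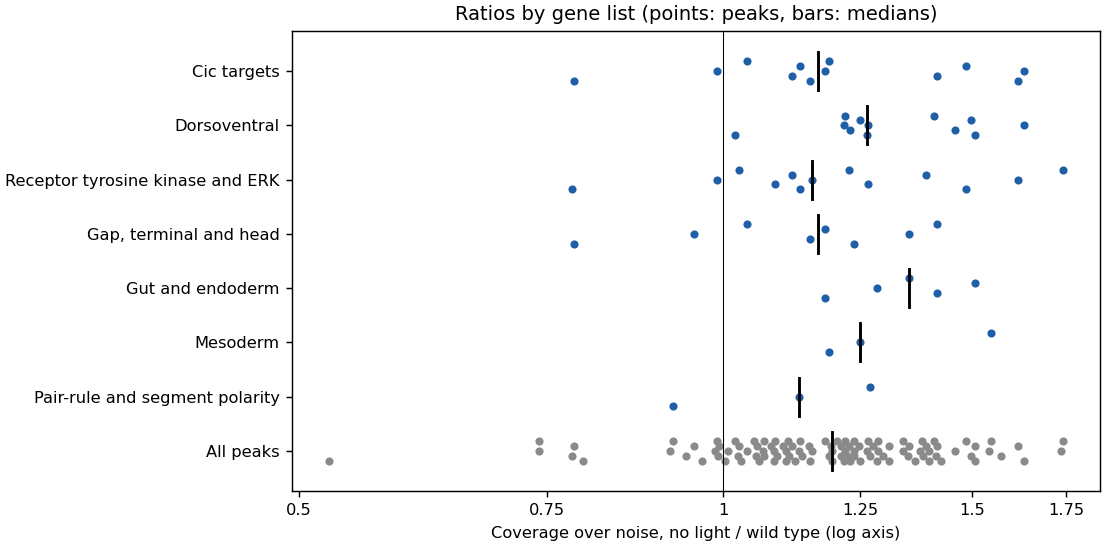
Ratio of dark OptoSOS embryos (no light) over wild type on a log axis for the peaks of 7 gene lists and for all peaks, with medians as bars. Dorsoventral ratios all lie above 1 with a median of 1.27, against 1.19 over all 103 peaks, and lists share genes.

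Gut, mesoderm and gap genes had few peaks, most of them tall. All 5 peaks of gut and endoderm genes, of which 2 are those of hkb, had intervals above 1, against 46.6% over all peaks. Their median ratio was 1.35, with all but hkb peak 2 above the median of all peaks. The list also has a high level, with median z-scores of 23.5 in dark embryos and 17.5 in wild type embryos. Among the 26 peaks of highest mean level over both conditions 23 intervals lay above 1. The GATA gene srp had coverage over noise of 19.5 in dark embryos and 12.95 in wild type embryos at peak 1 (1.51, 1.32 to 1.73), and 8.67 in dark embryos and 6.74 in wild type embryos at peak 2 (1.29, 1.06 to 1.57). The forkhead gene fkh had 18.3 in dark embryos and 13.5 in wild type embryos (1.35, 1.18 to 1.55). Of the 3 mesoderm peaks that of zfh1, a zinc-finger and homeodomain gene, differed most, with 17.99 in dark embryos and 11.6 in wild type embryos (1.55, 1.35 to 1.79). Its untagged level was 2.06 times the lowest. Of the 8 peaks of the gap, terminal and head list 6 had a ratio above 1, against 85.4% over all peaks. That list had a median ratio of 1.17, with 3 ratios above the median of all peaks. There the head homeobox gene hbn had 9.43 in dark embryos and 9.88 in wild type embryos (0.954, 0.804 to 1.13) and the POU gene pdm2 had 5.52 in dark embryos and 4.46 in wild type embryos (1.24, 0.972 to 1.58).

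Segmentation, Hox and neural genes were represented by single peaks or pairs. The pair-rule gene prd had a ratio of 1.27 (1.03 to 1.57) at peak 1 and 1.13 (0.910 to 1.43) at peak 2, and the zinc-finger gene salm had 0.921 (0.742 to 1.15). The Hox gene abd-A had coverage over noise of 9.50 in dark embryos and 7.38 in wild type embryos (1.29, 1.07 to 1.55), but by the highest 10 bp window the ratio was 0.993. Tom, a Notch pathway gene of the Bearded family, had 1.22 (1.01 to 1.47), pros, a homeobox gene of neural precursors, 1.003 (0.763 to 1.32) and the sex-determination gene sisA 1.09 (0.894 to 1.33). Outside the lists, fend peak 2, kirre and Rpn12R peak 2 were among the 10 highest ratios. fend peak 2 (X, 9129195 to 9129496) had 8.63 in dark embryos and 4.97 in wild type embryos (1.74, 1.40 to 2.14). kirre, an adhesion gene of muscle founder cells, had 6.02 in dark embryos and 3.90 in wild type embryos (1.54, 1.205 to 1.98). The third highest peak in both conditions, at the promoter of CG12986, had 25.01 in dark embryos and 19.6 in wild type embryos (1.28, 1.14 to 1.43), and its untagged level was 2.19 times the lowest.

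Only 3 of the 103 peaks were lower in dark embryos beyond counting error, and they were weak or of middle height. Within 500 bp of the centre the intervals of Shroom (0.894, 0.735 to 1.09) and CG13716 (0.821, 0.666 to 1.02) spanned 1 and that of S lay below it (0.757, 0.615 to 0.931), while 6 peaks were lower scaled to equal flanks and 11 scaled to a median ratio of 1. The peak of CG42807 (2R, 13566548 to 13567083), intergenic and 5461 bp from the nearest start site, had coverage over noise of 5.02 in dark embryos and 9.56 in wild type embryos, a ratio of 0.525 (0.427 to 0.645). Within 100 bp of the centre dark embryos reached 6.63 times the noise, against a sharp summit of 18.6 in wild type embryos, and nowhere in the 2 kb dark window did coverage pass 6.81. Within 100 bp of the centre of each condition's own window, coverage reached 11.03 after 1 min of light, 5.95 after 5 min and 5.68 after 30 min. With constitutively active Torso it reached 8.83, so that wild type stood above every other condition. Elsewhere in the window coverage reached 9.13 after 5 min and 7.70 after 30 min. The dark profile of CG42807 had the lowest shape correlation with wild type, 0.664 against a median of 0.9499, and the untagged level of this peak was 2.19 times the lowest. Shroom, a gene of apical cell constriction (2R, 14312407 to 14312691), had 4.62 in dark embryos and 6.24 in wild type embryos (0.740, 0.587 to 0.933). After 1 min of light its coverage was 7.52, a ratio to wild type of 1.21 (0.962 to 1.52), against a median of 1.48 over all peaks. The promoter peak of CG13716 (3L, 4634746 to 4635074) had 3.64 in dark embryos and 4.91 in wild type embryos (0.741, 0.571 to 0.964), and after 1 min of light 3.44, a ratio to wild type of 0.701 (0.513 to 0.945). By the RefSeq annotation of Release 6 this peak lies inside the gene body of axo. Besides tll peak 3 and S, Eip75B, an ecdysone-induced nuclear receptor gene, completed the 6 peaks that were at least 20% lower, with 3.93 in dark embryos and 4.94 in wild type embryos (0.795, 0.612 to 1.02). The rest of the 10 lowest ratios came from hbn, salm, Pli, a gene of Toll signalling (0.941, 0.755 to 1.17), and the weakest peak of both conditions, which has no gene symbol in the files (FBgn0262327; 0.916, 0.649 to 1.31).

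The embryos given 1 min of light come from the same line and can be set beside the dark ones, although both ratios share the wild type matrix and the 1 min matrix combined 2 libraries. The median ratio to wild type was 1.19 in the dark and 1.48 after 1 min. Both medians rest on the scaling by noise peaks, whose mean coverage was 2.83 reads after 1 min. Whether the general rise is one of binding was not tested. For sty the ratio was 1.74 in the dark and 2.14 (1.62 to 2.85) after 1 min. For ind it was 1.63 in the dark and 2.30 (1.93 to 2.77) after 1 min, and for pnt peak 2 it was 1.62 in the dark and 2.48 (2.14 to 2.88) after 1 min. At tll peak 1 the ratio was 1.04 in the dark and 1.24 (1.11 to 1.38) after 1 min, each below the median of its condition. At tld the ratio was 1.51 (1.28 to 1.77) in the dark and 1.40 (1.17 to 1.68) after 1 min, with overlapping intervals. Some other peaks were also not higher after 1 min, such as zen, with 1.264 in the dark and 1.255 after 1 min. After 30 min of light coverage over noise was 1.08 at sty, 2.16 at ind, 2.46 at pnt peak 2, 2.96 at tll peak 1 and 3.77 at tld. These values lay below both the dark and the wild type level, which was not particular to these peaks. The same held at nearly all of the 103 peaks. Exceptions included Cyt-b5-r, with 3.11 after 30 min, 2.89 in the dark and 2.60 in wild type embryos.

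**Figure D5:**
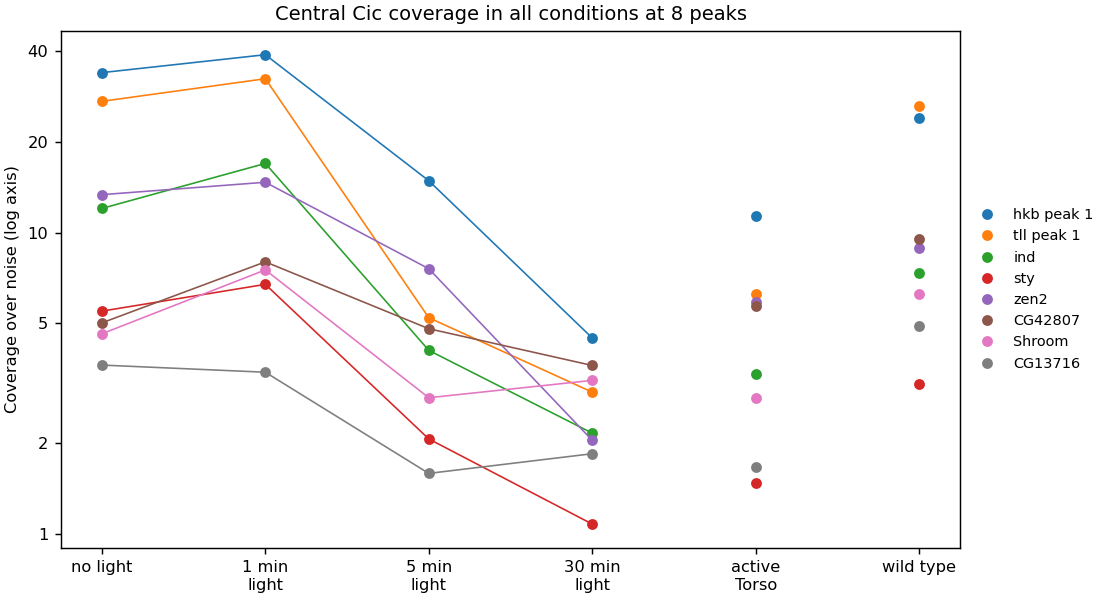
Central coverage over noise on a log axis at 8 peaks in OptoSOS embryos given no light or 1, 5 or 30 min of light, in embryos with active Torso and in wild type embryos, with lines joining the light series. The dark value lies above wild type at hkb peak 1, ind, sty and zen2, near it at tll peak 1, and below it at CG42807, Shroom and CG13716.

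The shapes of the binding profiles were close in both lines. Windows were centred separately in each condition, so small shifts are largely fixed by the centring. Genomic positions of the summits were therefore not compared. The best match of the dark profile to that of wild type lay within 50 bp for 97 peaks, with a median shift of 20 bp, and 72 peaks had a shape correlation over 0.9. The 6 larger shifts included Mkp3, by 170 bp, tll peak 3, by 150 bp, and cic peak 2, by 140 bp. The width at 50% of the height had a median of 230 bp in dark embryos and 210 bp in wild type embryos, and was wider in dark embryos at 68 peaks and narrower at 31. The excess was smallest far from the centre: the median ratio was 1.14 within 100 bp, 1.21 from 110 to 250 bp, 1.18 from 260 to 500 bp and 1.07 beyond 500 bp. The highest point lay within 10 bp of the window centre at 96 peaks in dark embryos and at 98 in wild type embryos, which the centring gives. In 7 pairs of overlapping windows identical coverage gave the distance between neighbouring highest points. For pnt peaks 1 and 2 it was 1030 bp in dark embryos and 1060 bp in wild type embryos, and for the cic pair 800 bp in dark embryos and 900 bp in wild type embryos. For the hkb pair it was 1580 bp in dark embryos and 1510 bp in wild type embryos, the only pair with a longer distance in dark embryos.

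Location in the genome divided the peaks little. Intronic peaks had a median ratio of 1.23 (41 peaks), promoter peaks 1.19 (27), distal intergenic peaks 1.13 (14) and peaks without a deposited class 1.18 (14). Smaller classes were downstream (1.14, 4 peaks), exonic (1.17, 2 peaks) and 5′ UTR, which holds S alone. Peaks at most 1000 bp from a start site had a median of 1.18 (39 peaks) and those farther away 1.22 (64). By chromosome arm the medians were 1.22 on 2L, 1.15 on 2R, 1.22 on 3L, 1.17 on 3R and 1.203 on X. None of the 13 X peaks had a ratio below 1, against 14.6% of all peaks. Of 11 genes with more than 1 peak, fend, tll and pnt had the most unequal peaks, with the highest ratio 1.51, 1.47 and 1.45 times the lowest, and InR, the insulin receptor gene, had the most equal (1.02 times).

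The remaining 50 peaks lie outside the lists and the extremes, so their range was limited by how they were chosen. Of these, 46 had a ratio above 1, 22 were above the median of all peaks, 15 were at least 25% higher in dark embryos and 18 intervals lay above 1. Over all peaks 85.4% had a ratio above 1, 35.9% were at least 25% higher and 46.6% of intervals lay above 1. The ratios of the 50 ranged from 0.966 to 1.43 with a median of 1.17. The highest was toc, with coverage over noise of 6.54 in dark embryos and 4.59 in wild type embryos (1.43, 1.13 to 1.801). Sox21b, a Sox family gene, had 10.04 in dark embryos and 7.09 in wild type embryos (1.42, 1.18 to 1.71). The tallest of the higher ones was the promoter peak of Lrt, with 16.96 in dark embryos and 12.2 in wild type embryos (1.39, 1.204 to 1.597). upd1, a JAK/STAT ligand gene, had 6.83 in dark embryos and 4.93 in wild type embryos (1.38, 1.10 to 1.73), and disco, a zinc-finger gene of the head, 7.67 in dark embryos and 5.73 in wild type embryos (1.34, 1.09 to 1.65). The neural cadherin gene CadN had a ratio of 1.38 (1.08 to 1.79), apt, a gene of head and trachea, 1.297 (1.12 to 1.51), and shn, a zinc-finger gene of the BMP response, 1.24 (1.06 to 1.44). Intervals spanned 1 at both peaks of InR (1.09, 0.902 to 1.31, and 1.11, 0.892 to 1.37), at the Ras regulator gene Nf1 (1.10, 0.886 to 1.38) and at rib, a gene of tube formation (1.09, 0.867 to 1.36). The lowest of the 50 was a distal intergenic peak without a gene symbol in the files (FBgn0267547), with 4.82 in dark embryos and 4.99 in wild type embryos (0.966, 0.759 to 1.23).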

How the data were processed

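ChIP-seq of GFP-tagged Cic was analysed from deposited files, with the wild type and no light groups taken from the sample titles. The submitters' processing notes list Trim Galore, BWA 0.7.17-r1188, SAMtools, MACS2, ChIPseeker and the dm6 build. MACS 2.1.2 was run on 3 wild type against 3 untagged OreR files together (q threshold 0.01, extension 145 bp, all duplicates kept), per the file headers. The deposited fold enrichment is wild type pileup over the local untagged level, the deposited pileup is a coverage signal, and significance stands in the deposited lists as -log10 p or -log10 q; the deposited peak score is 10 times the -log10 q. How the final list was filtered is not stated in the sources used. Each deposited matrix score is a z-score per 10 bp window over 201 windows, normalised on noise peaks, with replicates combined by the authors, per the contents sheet.

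Column k was read as row k of the peak list, because 7 pairs of overlapping windows held identical coverage in both conditions. The lowest value of a matrix was read as no coverage, and 1 step as 0.1 read. As a check, 6994179 tags of 74 bp over the effective genome size of the header give 4.31 reads, near the recovered noise coverage. Ratios have exact conditional 95% intervals on read bases divided by 74, and medians have order-statistic intervals over peaks. The interval and shift steps were tested on simulated data. Untagged level is pileup divided by fold enrichment. Members, lists and the naming rule were chosen with earlier results of these data known. That rule took all peaks of the lists, the 10 highest peaks of each condition, the 10 highest and lowest ratios and the 5 largest and smallest z differences, 53 peaks in all; others named are examples chosen after their values were seen. Groups by level, arm and class, second summits and central highest points were also chosen after the data were seen. Of 88 symbols 85 were found in the RefSeq table of Release 6. Sequences and motifs were not analysed here. Python 3.11.15, numpy 2.4.6, pandas 2.3.3 and scipy 1.17.1 were used. Alternatives covered window width, statistic, alignment, scaling, noise subtraction, peak subsets, read length and fold.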

Additional observations from a re-analysis of the deposited data

How the results depend on the processing

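The size of the excess in dark embryos depends on the scaling. When dark coverage was scaled to a median ratio of 1, which removes any general difference by construction, the median z difference was -0.19 in place of 1.30, the median ratio 1, and 10 peaks were at least 25% higher and 10 at least 20% lower, with 13 intervals above 1 and 11 below. Ratios of 13 named peaks then turned below 1, among them the peaks past the counting limit wntD (0.995), tll peak 2 (0.964) and hkb peak 2 (0.988). Scaled to equal flanks, the median ratio was 1.13, with 27 peaks at least 25% higher and 6 at least 20% lower. There 41 intervals lay above 1 and 6 below 1. Within 500 bp of the centre 2 peaks were at least 20% lower, and tll peak 3 had 1.03. By the highest 10 bp window 18 intervals lay above 1, from fewer reads, and abd-A had 0.993. Among the 52 peaks at or above the median wild type z-score, the median z difference was 3.07, with 23 peaks at least 25% higher and 2 at least 20% lower. With the extension length of the peak call per read 1 interval lay below 1. A fold of 1.5 was reached by 9 peaks upward and 1 downward. Windows of 100 bp, alignment by shape, noise subtraction and leaving out overlapping windows kept the medians within their intervals and the counts within 1.5 times. Of 444 single-peak ratios under these alternatives 27 crossed 1, at 17 of 53 peaks, and 5 of these were of peaks past the fold or counting limit. Of the other ratios 407 stayed within their counting interval and 32 moved outside it, crossings of peaks not past a limit included. No paired analysis was possible because replicates were combined in each deposited matrix, which also allowed no replicate to be left out. The motif comparison planned was not run.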
